A study of Homo sapiens with 4 samples.

Results

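MDA-MB231 and Hs578T are established human breast cancer cell lines, both given as basal-like by the submitters, and the values here set the MDA-MB231 arrays against the Hs578T arrays. The arrays were chosen by the line named in their labels and make up 4 of the 4 arrays in the series. Each line was present as control cells and as cells expressing FBP1, the gluconeogenic enzyme fructose-1,6-bisphosphatase, with 1 array for each combination of line and construct. The labels name no vector, promoter or treatment for the control cells. The FBP1 cells were selected as stable clones, so a difference within a line can also be a difference between clones. All cells were grown in DMEM/F12 with serum and harvested in log-phase growth, and their total RNA was hybridised to Affymetrix arrays. Line differences were estimated from both constructs together, with the construct as a block.

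Basal-like breast cancers mostly lack the oestrogen receptor and carry keratins of the outer cell layer of the mammary duct. Cell lines of this class range from epithelial, with E-cadherin, claudins and desmosomes holding cells together, to mesenchymal, with vimentin, N-cadherin and a secreted collagen matrix. Both lines studied here are usually placed near the mesenchymal end, and what separates them is therefore a question of which parts of the epithelial and mesenchymal programmes each retains.

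The lines differed at 6500 of 15946 genes tested (40.8%) by limma with Benjamini-Hochberg adjustment at 0.05. MDA-MB231 was higher at 3475 genes (21.8%) and Hs578T at 3025 (19.0%). Of the 6500, 1718 (10.8% of genes tested) differed at least 2-fold, 867 (5.44%) with MDA-MB231 higher and 851 (5.34%) with Hs578T higher. At least 16-fold differences numbered 107 (0.671%), 34 with MDA-MB231 higher (0.213%) and 73 with Hs578T higher (0.458%). Genes that pass the adjusted threshold are called different below, and all counts of list members are read against these shares. The median size of a line difference was 0.245 on the log2 scale, against a median size of 0.0871 for the difference between control and FBP1 cells of MDA-MB231 and 0.123 for that of Hs578T. All 6500 called differences had the same sign between the control arrays as between the FBP1 arrays. The test fixes this in advance, because its error grows with the disagreement between the control and FBP1 pairs. Fewer genes were called when either MDA-MB231 array was left out. Fits with an array left out carried no construct block. Without an MDA-MB231 array their error came from the difference between the control and FBP1 arrays of Hs578T, moderated over all genes. A call lost in this way therefore does not show that it rested on the MDA-MB231 values.

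Values are log2 intensities. The error of a line difference comes from how far the control pair and the FBP1 pair of arrays disagree, moderated over all genes, and its median standard error was 0.105. No culture was repeated within a line and construct, so the p-values measure the spread between these 4 samples only. Intensities of different genes' probe sets cannot be set against each other, and the table holds no detection calls. GFAP, a glial marker, read 7.85 to 8.0 on the 4 arrays and SOX10, a neural crest factor, 8.22 to 8.39, so a value of that size does not show that a gene is transcribed. Genes whose mean over the arrays lay below log2 6.16, the 25th percentile of all probe sets, were not tested. Where both arrays of a line lay below 6.16, the gene is said to be below the filter level there. This held in Hs578T for 11 of the 34 genes at least 16-fold higher in MDA-MB231, and in MDA-MB231 for 27 of the 73 at least 16-fold higher in Hs578T. In such genes a fold change understates the difference if the low value is background.

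Genes of epithelial adhesion were mostly higher in MDA-MB231. Of 37 tested members of a list of junction and epithelial surface genes, 22 were called higher in MDA-MB231 and 5 in Hs578T, and 15 and 4 differed at least 2-fold. The list's median difference was 0.42 on the log2 scale, against −0.02 for all genes tested. EPCAM, an epithelial surface adhesion molecule, read 9.47 in MDA-MB231 control and 9.43 in MDA-MB231 FBP1 cells, and 6.55 and 6.26 in Hs578T control and FBP1 cells. The MDA-MB231 arrays lay well above the Hs578T arrays, an 8.25-fold difference (limma log2 difference 3.04, SE 0.114, adjusted p = 1.47e-05). CDH1, which encodes E-cadherin, the defining cadherin of epithelia, read 7.64 and 7.90 in MDA-MB231 and 6.53 and 6.34 in Hs578T. Its groups did not overlap either, but the difference was smaller at 2.52-fold (limma log2 difference 1.33, SE 0.137, adjusted p = 0.000737). The MDA-MB231 values of CDH1 are about the size of those of GFAP, so they do not show that CDH1 is transcribed. CLDN7, a tight junction claudin, read 9.84 and 10.19 in MDA-MB231 against 6.59 and 7.01 in Hs578T. CLDN3, another claudin, stood at 8.97 and 8.73 against 8.57 and 8.60 and was not called (limma adjusted p = 0.117), so the claudins did not all separate the lines.

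Desmosomal genes were called in both directions, with differing weight. DSC2, a desmosomal cadherin, read 10.87 or more on the MDA-MB231 arrays against 8.05 and 7.68 in Hs578T, an 8.40-fold difference. PKP2, a desmosomal plaque protein, was 8.53-fold higher in MDA-MB231. DSC3, a cadherin of stratified epithelia, went the other way, at 5.99 and 6.14 in MDA-MB231, below the filter level, and 8.31 and 7.42 in Hs578T. The Hs578T values of DSC3 are about the size of those of GFAP and SOX10, so they do not show that DSC3 is transcribed. DSP, the plakin that ties desmosomes to keratin, was 1.37-fold higher in Hs578T, a call lost without either MDA-MB231 array. Among the other members higher in MDA-MB231, SPINT2, a surface inhibitor of serine proteases, was 9.47-fold higher and CDCP1, a transmembrane substrate of Src kinases, 35.9-fold. The claudin gene CLDN11 and PERP, a desmosome-associated p53 target, were among the 4 members at least 2-fold higher in Hs578T. The CLDN11 call was lost without the MDA-MB231 control array. The list's calls toward MDA-MB231 numbered 16 without that array and 15 without the MDA-MB231 FBP1 array.

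Repressors of the SNAI and ZEB families bind the E-box CAGGTG, which reads CACCTG on the other strand. RefSeq promoter sequences on GRCh38.p14, covering 250 bases before to 50 after each start site, were searched for both forms. Of 37 tested junction genes 26 had a sequence there. CDH1, EPCAM, PKP2 and SPINT2 are among those without one and were not searched. Of the 26, 10 held a match (38.5%), against 5625 of 27305 promoters in all (20.6%). Within the list, 6 of 14 genes called higher in MDA-MB231 held a match, and so did 4 of 12 others. Of the EMT factor list 2 of 19 did (10.5%), and of the matrix list 2 of 28 (7.14%). A match is a description of the sequence and not a bound site. The 4 junction genes called at least 2-fold higher in MDA-MB231 with a whole match before the start site are shown. They were picked on both the motif and the line difference, so they do not show that the 2 go together. Each line gives the 250 bases before the start site on the gene's strand, 5′ to 3′, with matches in capitals.
CDCP1: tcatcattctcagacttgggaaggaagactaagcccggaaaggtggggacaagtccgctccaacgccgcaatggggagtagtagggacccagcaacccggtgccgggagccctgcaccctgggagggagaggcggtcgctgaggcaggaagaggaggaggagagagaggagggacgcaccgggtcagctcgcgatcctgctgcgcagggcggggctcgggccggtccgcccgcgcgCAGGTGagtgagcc
DSC2: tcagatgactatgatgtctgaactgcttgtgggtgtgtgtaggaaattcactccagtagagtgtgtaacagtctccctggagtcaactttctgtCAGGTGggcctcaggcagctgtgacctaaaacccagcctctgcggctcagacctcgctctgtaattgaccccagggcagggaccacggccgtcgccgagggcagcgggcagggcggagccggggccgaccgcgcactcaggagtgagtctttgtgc
DSG2: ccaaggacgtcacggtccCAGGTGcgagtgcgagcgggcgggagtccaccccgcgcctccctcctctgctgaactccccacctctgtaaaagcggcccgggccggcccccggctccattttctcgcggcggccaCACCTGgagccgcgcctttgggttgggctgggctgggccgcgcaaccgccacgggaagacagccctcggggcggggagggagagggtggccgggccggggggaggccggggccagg
AP1M2: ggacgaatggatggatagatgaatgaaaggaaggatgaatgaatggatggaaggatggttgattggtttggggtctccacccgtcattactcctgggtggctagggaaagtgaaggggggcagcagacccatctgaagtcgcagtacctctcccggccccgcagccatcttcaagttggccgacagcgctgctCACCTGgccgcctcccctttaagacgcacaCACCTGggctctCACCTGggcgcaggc
The CDCP1 stretch lies at chr3:45146379-45146628 on the minus strand and holds 1 match close to the start site. The DSC2 stretch lies at chr18:31102422-31102671 on the minus strand with 1 match, and that of its desmosomal partner DSG2 at chr18:31497927-31498176 on the plus strand with 2. The AP1M2 stretch, of an epithelial sorting adaptor subunit, lies at chr19:10587313-10587562 on the minus strand with 3. DSG2 was 2.37-fold and AP1M2 2.25-fold higher in MDA-MB231, less than CDCP1 and DSC2, so the number of matches did not follow the size of the difference in these 4 genes.

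Luminal keratins were strongly higher in MDA-MB231, whereas basal markers were split. Of 21 tested luminal markers 11 were called higher in MDA-MB231 and 3 in Hs578T. Of 20 basal and myoepithelial markers 6 were called higher in each line. KRT8, a keratin of simple epithelia, read 13.10 and 13.02 in MDA-MB231 and 9.58 and 9.80 in Hs578T, a 10.4-fold difference. Its usual partner KRT18 read 12.59 and 12.65 against 12.33 and 12.71 and was not called (limma adjusted p = 0.452), the arrays of the lines overlapping, though it was called without the Hs578T FBP1 array. KRT19 was 16.6-fold higher in MDA-MB231, and KRT7 was higher by 3.81 on the log2 scale. KRT7 read 7.91 in Hs578T control and 9.07 in Hs578T FBP1 cells, both far below the 12.33 and 12.26 of MDA-MB231. KRT5, a basal keratin, read 6.8 to 6.93 on the 4 arrays and was not called. KRT14, its partner in basal cells, was 1.61-fold higher in Hs578T (limma adjusted p = 0.049), and the call was lost in 9 of 12 alternative fits.

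The integrin pair of the hemidesmosome, which anchors basal epithelial cells to laminin, was higher in MDA-MB231. ITGB4 read 10.94 or more in MDA-MB231 and 7.21 and 7.46 in Hs578T, a 12.4-fold difference, and its partner ITGA6 differed 4.65-fold. CDH3, P-cadherin, read 8.18 and 7.93 in MDA-MB231 and 6.94 and 7.17 in Hs578T. Of the myoepithelial genes of the same list, the small heat shock protein gene CRYAB was 4.26-fold, the contractile gene CNN1 2.57-fold and the surface peptidase gene MME 2.40-fold higher in Hs578T. CRYAB was below the filter level in MDA-MB231, and the CNN1 call was lost without the MDA-MB231 control array. The labelled class was checked on its usual markers. ESR1, the oestrogen receptor, read 6.64 to 6.8 on all arrays and PGR, the progesterone receptor, 5.61 to 6.36. EGFR, a receptor often abundant in basal-like cancers, read 10.63 to 11.05 and was not called different (limma adjusted p = 0.0514), though it was called without the Hs578T FBP1 array and with the stricter filter. KRT5 at these values does not show transcription of a basal keratin in either line.

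**Figure D1:**
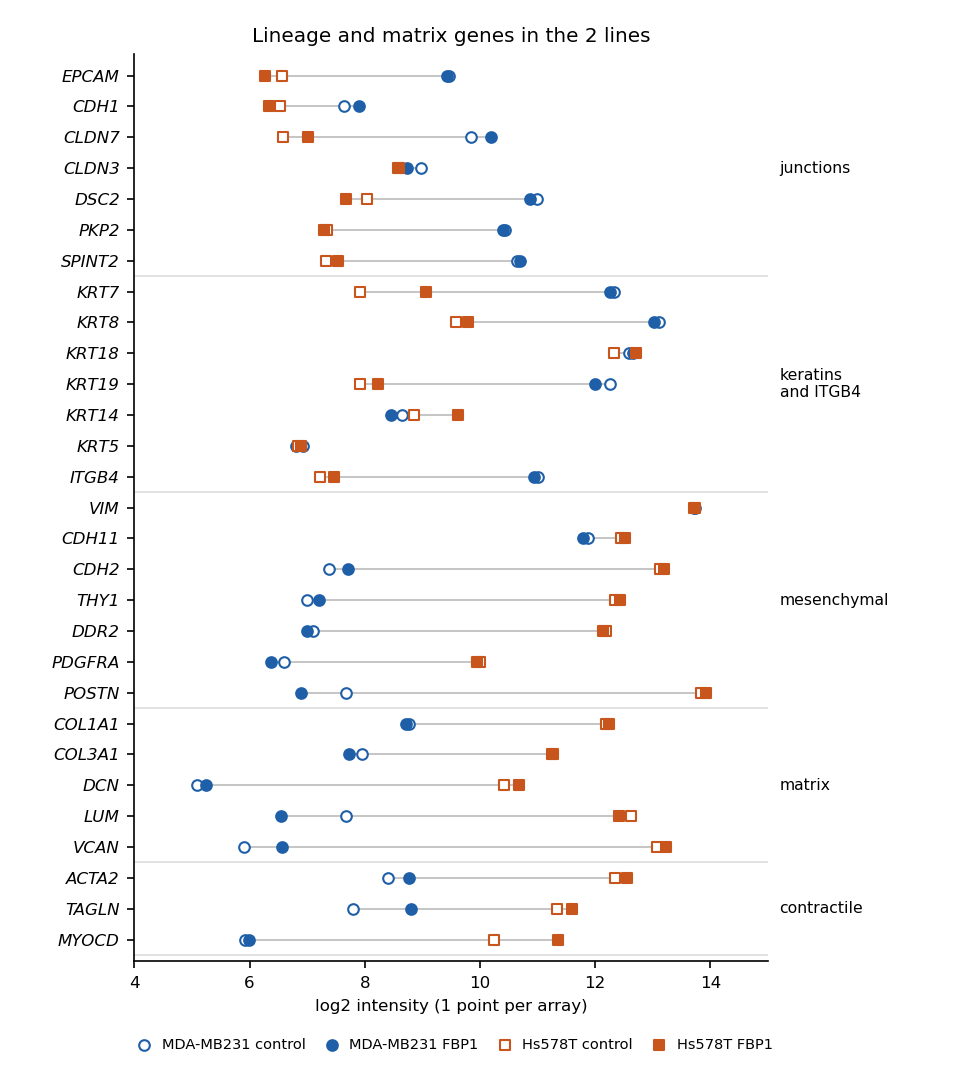
Log2 intensity (horizontal axis) of lineage and matrix genes on each array, with circles for MDA-MB231 and squares for Hs578T, open for control and filled for FBP1 cells, 1 point per array and a line joining the lowest and highest. Junction and keratin genes such as EPCAM lie to the right in MDA-MB231, VIM coincides on all 4 arrays near 13.7, and N-cadherin (CDH2) and matrix genes lie to the right in Hs578T.

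Mesenchymal genes were mostly higher in Hs578T. Of 35 tested mesenchymal and fibroblast markers 22 were called higher in Hs578T and 3 in MDA-MB231, with 19 and 2 differing at least 2-fold and a list median of −1.08. VIM, the mesenchymal intermediate filament, read 13.72 and 13.71 in MDA-MB231 and 13.72 on both Hs578T arrays. CDH11, a mesenchymal cadherin, was bright in both, at 11.87 and 11.78 against 12.44 and 12.52. CDH2, which encodes N-cadherin, read 7.38 and 7.71 in MDA-MB231 and 13.13 and 13.20 in Hs578T, a 49.1-fold difference (limma log2 SE 0.109, adjusted p = 3.68e-06). Thus the lines share vimentin and differ widely at N-cadherin, which was higher in Hs578T. The E-cadherin gene gave a higher signal in MDA-MB231, but at a level that does not show transcription in either line. THY1, a surface glycoprotein of fibroblasts, read 7.0 and 7.2 against 12.35 and 12.43, and DDR2, a collagen receptor kinase, 7.11 and 6.99 against 12.18 and 12.13. PDGFRA and PDGFRB, the receptors for platelet-derived growth factor, were 11.2-fold and 4.58-fold higher in Hs578T. The 2 members at least 2-fold higher in MDA-MB231 were S100A4, a calcium-binding protein linked to motility (6.39-fold), and PDPN, the sialoglycoprotein podoplanin (5.57-fold).

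Matrix genes followed the same direction with single exceptions. Of 41 tested members 26 were called higher in Hs578T and 6 in MDA-MB231, and 18 and 3 differed at least 2-fold. VCAN, the large matrix proteoglycan versican, read 5.90 and 6.57 in MDA-MB231 and 13.07 and 13.22 in Hs578T. That is a 120-fold difference, the second largest of all genes tested toward Hs578T. POSTN, periostin, from the mesenchymal list, read 7.68 and 6.90 against 13.83 and 13.93. The small leucine-rich proteoglycans LUM, DCN and BGN were 42.5-fold, 41.7-fold and 33.5-fold higher in Hs578T, DCN being below the filter level in MDA-MB231. Fibrillar collagen chains were higher as well, COL1A2 by 21.7-fold, COL1A1 by 11.05-fold and COL3A1 by 10.7-fold. SPARC, a collagen-binding matricellular protein, read 11.84 and 11.60 against 14.23 and 14.03, and FN1, fibronectin, 13.10 and 13.18 against 14.21 and 14.13, so neither was confined to Hs578T. The 3 exceptions at least 2-fold higher in MDA-MB231 were THBS2, a thrombospondin (11.7-fold), TNC, tenascin C (a log2 difference of 2.24), and SPP1, osteopontin (2.28-fold). The SPP1 call was lost without either MDA-MB231 array, without the Hs578T FBP1 array and without the block, and its fold was 1.48 without the Hs578T FBP1 array. Without the MDA-MB231 control array 21 matrix genes were called higher in Hs578T and 2 in MDA-MB231, and without the MDA-MB231 FBP1 array 20 and 2. Smooth muscle and contractile genes were called higher in Hs578T for 15 of 22 tested members and in MDA-MB231 for 2, CNN3 and SRF. ACTA2, smooth muscle actin, read 8.41 and 8.77 against 12.35 and 12.56. MYOCD, a coactivator of the serum response factor SRF that switches on smooth muscle genes, was below the filter level in MDA-MB231 at 5.92 and 5.99 and read 10.24 and 11.36 in Hs578T. SRF itself was 1.45-fold higher in MDA-MB231, a call lost without either MDA-MB231 array. The contractile list had 9 and 12 calls toward Hs578T without the MDA-MB231 control and FBP1 arrays.

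Genes named for other cell types were examined next, since a cultured line should hold only its own. PTPRC (CD45) and CD3E, the defining leukocyte and T cell markers, lay below the filter level on all 4 arrays, and the mean of 5 leukocyte markers was 6.64 and 6.63 in MDA-MB231 and 6.52 and 6.68 in Hs578T. Of a wider leukocyte list, 9 of 23 tested genes were called higher in MDA-MB231 and 1 in Hs578T, 6 of the 9 at least 2-fold. In all 43.5% were called, near the 40.8% of all genes, and 26.1% at least 2-fold, against 10.8%. A further 8 members on the array were not tested. LAPTM5, CD96 and PLAC8 of this list are among the 15 largest differences toward MDA-MB231, and the lists were chosen with earlier results known. LAPTM5, a lysosomal membrane protein of blood cells, read 13.25 and 13.15 in MDA-MB231 and 6.69 and 6.77 in Hs578T. CD96, an immunoglobulin-family receptor, was 40.9-fold higher in MDA-MB231 and LCP1, the actin bundler L-plastin, 4.27-fold. LCP1 was bright in Hs578T too, at 11.57 and 11.09. Bulk RNA does not tell a gene read in all cells from a higher level in fewer cells. Of 17 tested endothelial markers 5 were called higher in MDA-MB231 and 2 in Hs578T, together 41.2% against the 40.8% of all genes. The median difference of that list was −0.07. PECAM1 was 3.04-fold higher in MDA-MB231, while CDH5, VE-cadherin, read 6.84 to 7.14 on all arrays. Of 22 neural and neural crest markers 7 were called higher in MDA-MB231 and 8 in Hs578T. The synaptic vesicle genes SYT1 and SNAP25 were 7.53-fold and 4.33-fold higher in Hs578T, and the adhesion molecules NRCAM and L1CAM 3.64-fold and 2.98-fold higher in MDA-MB231. The NRCAM call was lost without either MDA-MB231 array, and its fold was 2.33 and 5.69 without the Hs578T FBP1 and control arrays.

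Across 9 lineage and matrix lists with 235 different tested genes, 43.4% were called and differed at least 2-fold. The share was 31.0% of 632 surface and secreted genes in 15 lists, 21.9% of 401 metabolic genes in 8 lists and 17.4% of 287 transcription factor genes in 7 lists, against 10.8% of all genes tested. Of 29 housekeeping genes 0 were called with a 2-fold difference. Smaller differences were called toward MDA-MB231 in 5 of them and toward Hs578T in 4, with a median of 0.08. The lists were chosen for genes that vary between cell types, so shares above the background are part of how they were chosen.

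**Figure D2:**
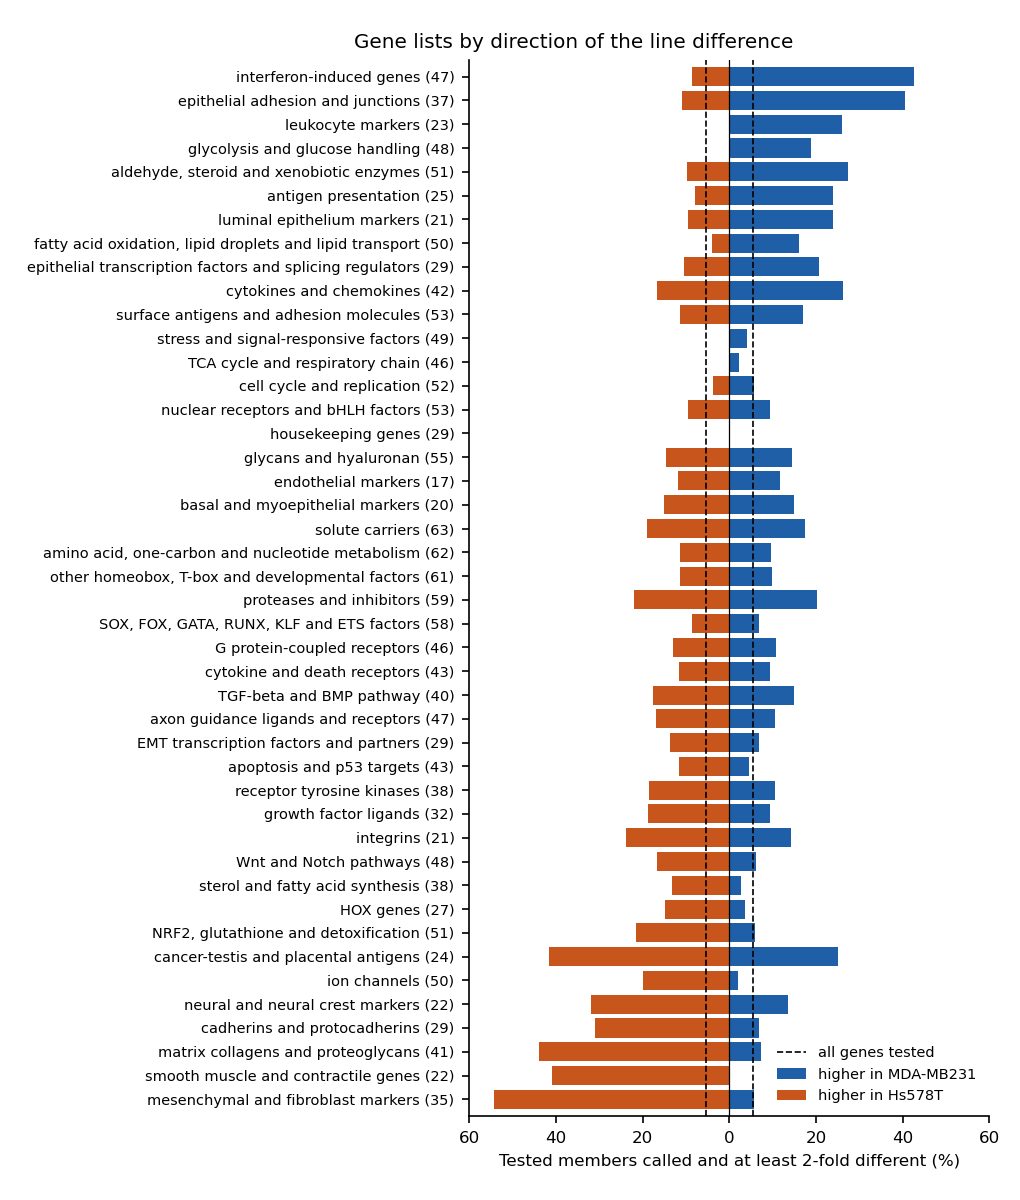
Share of each list's tested members (number in brackets) that were called and at least 2-fold higher in Hs578T (left, orange) or MDA-MB231 (right, blue), in percent, with dashed lines at the shares of all genes tested, 5.34% and 5.44%. Interferon-induced and junction genes reach furthest toward MDA-MB231, and mesenchymal, matrix, cancer-testis and contractile genes furthest toward Hs578T.

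Receptor tyrosine kinases were divided almost equally, 14 of 38 called higher in MDA-MB231 and 12 in Hs578T. AXL, a receptor tied to mesenchymal states, was 1.31-fold higher in MDA-MB231 and MET, the receptor of hepatocyte growth factor, 1.64-fold higher in Hs578T. The AXL call was lost without either MDA-MB231 array, without the Hs578T control array and without the block, and the MET call was lost without the MDA-MB231 control array. The insulin receptor INSR and IGF1R, receptor of the insulin-like growth factors, were 3.08-fold and 2.25-fold higher in MDA-MB231. Among ligands, EREG, epiregulin, which binds EGFR, read 6.52 and 6.61 in Hs578T and was 26.9-fold higher in MDA-MB231. TGFA, another ligand of EGFR, read 9.34 and 9.31 against 6.23 and 6.35. In Hs578T the fibroblast growth factor FGF2 read 10.66 and 11.30 against 6.79 and 6.95 in MDA-MB231, and PDGFA was 4.67-fold higher. EREG and TGFA were thus higher in MDA-MB231 while EGFR itself was not called. The other tested EGFR ligands, HBEGF, BTC and EGF, are not described here, so this does not cover the ligands as a group.

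Among BMP ligands, BMP4 read 12.24 and 11.96 in MDA-MB231 and 9.23 and 9.78 in Hs578T, and BMP5 was 7.25-fold higher in MDA-MB231, being below the filter level in Hs578T. BMP2 was 3.24-fold higher in Hs578T, as was BMP1, a procollagen peptidase despite its name, 3.11-fold. NOG, noggin, which blocks BMP ligands, was also 7.26-fold higher in MDA-MB231. ID3, an inhibitor of basic helix-loop-helix factors and a usual target of BMP signalling, read 8.50 and 8.86 in MDA-MB231 and 12.44 and 11.94 in Hs578T. ID2 was 3.75-fold higher in Hs578T, and ID4 1.33-fold higher in MDA-MB231, a call lost without either MDA-MB231 array. The ID2 call was lost without either MDA-MB231 array, and its fold was 5.79 and 2.44 without the Hs578T FBP1 and control arrays. Of the 40 tested genes of the TGF-beta and BMP list, 18 were called higher in Hs578T and 8 in MDA-MB231. At least 2-fold the counts were 7 and 6. With no fold minimum, fewer members were called in each direction without the MDA-MB231 FBP1 array. TGFBR2, the type II receptor, was 2.70-fold higher in MDA-MB231, and the inhibitory SMAD7 2.52-fold higher in Hs578T, a call lost without the MDA-MB231 FBP1 array.

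Wnt and Notch genes were called higher in Hs578T for 17 of 48 tested members and in MDA-MB231 for 8. FZD3, a Wnt receptor, read 9.41 and 9.58 in MDA-MB231 and was below the filter level in Hs578T at 5.76 and 5.47. WNT5A, a ligand of noncanonical signalling, was 4.10-fold and the secreted DKK3 7.67-fold higher in Hs578T, whereas the Wnt antagonist DKK1 was 2.75-fold higher in MDA-MB231. HEY2, a Notch target and transcriptional repressor, read 7.10 and 6.93 against 10.76 and 10.35, and the Notch ligand JAG1 was 1.83-fold higher in Hs578T. SFRP2, a secreted Wnt modulator, read 6.14 and 6.13 in MDA-MB231, and 10.34 in Hs578T control but 7.78 in Hs578T FBP1 cells. It was below the filter level in MDA-MB231, its call was lost without either MDA-MB231 array, and its fold was 18.4 and 3.13 without the Hs578T FBP1 and control arrays.

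Of 21 tested integrin genes, 5 were called higher in MDA-MB231 and 8 in Hs578T, 3 and 5 of them at least 2-fold. The collagen receptor chain ITGA11 read 6.99 and 6.94 in MDA-MB231 and 12.48 and 12.12 in Hs578T, a 40.4-fold difference. ITGA8 and ITGA4, which bind fibronectin and related ligands, were 18.5-fold and 12.9-fold higher in Hs578T and below the filter level in MDA-MB231. ITGB1, the common beta chain, read near equal on all arrays with a log2 difference of 0.03. Besides N-cadherin, 8 cadherin and protocadherin genes were at least 2-fold higher in Hs578T, against CDH1 and PCDHB5 in MDA-MB231. CDH6, a cadherin of kidney and neural crest, read 11.80 and 12.04 in Hs578T and 5.71 and 6.15, below the filter level, in MDA-MB231, and PCDH18 and PCDH7 were 29.1-fold and 18.3-fold higher in Hs578T. The value of PCDHB5 is uncertain because the clustered protocadherins are similar in sequence, and its call was lost without either MDA-MB231 array and without the block. Its log2 difference of 1.32 was 0.59 without the Hs578T FBP1 array.

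Surface antigens gave markers for each line. CD109, a glycosylphosphatidylinositol-anchored coreceptor, read 11.09 and 11.18 in Hs578T and 5.2 and 5.54, below the filter level, in MDA-MB231. GPC6, a glypican, was 12.1-fold higher in Hs578T. PODXL, the sialomucin podocalyxin, read 12.54 and 12.73 in MDA-MB231 and 9.42 and 9.17 in Hs578T. CD274, which encodes the checkpoint ligand PD-L1, read 10.01 and 10.28 against 7.67 and 7.92, a 5.09-fold difference. CD44, a hyaluronan receptor, read 13.68 to 13.88 on all 4 arrays and was not called, though it was without the block and without the Hs578T FBP1 array.

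Antigen presentation genes were called higher in MDA-MB231 for 12 of 25 tested members and in Hs578T for 3. Class II genes differed widely, HLA-DPB1 at 11.36 and 11.49 against 7.74 and 7.59 and the peptide exchange subunit HLA-DMA 6.12-fold higher in MDA-MB231. CIITA, the transactivator of class II genes, was 1.29-fold higher in MDA-MB231, a call lost without either MDA-MB231 array. Class I processing genes differed less, with TAP1 1.80-fold and PSMB9 2.01-fold higher in MDA-MB231, and B2M, the common light chain of class I, read 12.15 to 12.45 on the 4 arrays and was not called, though it was without the Hs578T control array. ERAP2, a peptide-trimming enzyme of the endoplasmic reticulum, read 7.94 and 7.80 in MDA-MB231 and 11.39 and 11.38 in Hs578T. Among stress ligands seen by natural killer cells, MICB was 6.36-fold higher in MDA-MB231 and ULBP1 6.29-fold higher in Hs578T, so ligands of the same receptor separated the lines in opposite directions. HLA genes are similar in sequence and variable between people, and probe binding can differ between lines.

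Secreted signals of inflammation were also split by gene. IL1B read 10.66 and 11.26 in MDA-MB231 and 6.41 and 7.77 in Hs578T, and IL18 8.54 and 8.88 against 3.92 and 4.09, the latter below the filter level. CXCL12, a stromal chemokine, read 6.30 and 6.42 in MDA-MB231 and 11.62 and 11.56 in Hs578T, and the monocyte attractant CCL2 was 31.1-fold higher in Hs578T. CXCR4, the receptor of CXCL12, was 2.11-fold higher in MDA-MB231, where the ligand was low, a call lost without the MDA-MB231 FBP1 array. IL1B was 23.4-fold and 9.13-fold higher in MDA-MB231 without the Hs578T FBP1 and control arrays. IL6 was not called. TNFSF10, the death ligand TRAIL, read 11.97 and 11.83 in MDA-MB231 and 6.23 and 6.08 in Hs578T. Of its receptors TNFRSF10A was 1.39-fold higher in MDA-MB231 and TNFRSF10B 1.65-fold higher in Hs578T, both far smaller differences than that of the ligand. The TNFRSF10A call was lost without either MDA-MB231 array and without the Hs578T FBP1 array. FAS, another death receptor, was 2.54-fold higher in Hs578T.

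Of 46 G protein-coupled receptor genes 13 were called higher in MDA-MB231 and 12 in Hs578T. F2RL2, a protease-activated receptor, read 6.49 and 6.90 in MDA-MB231 and 11.34 and 11.99 in Hs578T, and AGTR1, the angiotensin II receptor, 7.16 and 6.78 against 10.53 and 11.21. Of 50 ion channel genes 10 were at least 2-fold higher in Hs578T and 1 in MDA-MB231, the potassium channel gene KCNQ3. KCNMA1, a calcium-activated potassium channel, was 22.1-fold and PIEZO2, a mechanically gated channel, 20.4-fold higher in Hs578T. Solute carrier genes were balanced, 25 of 63 called higher in MDA-MB231 and 26 in Hs578T, with large differences both ways. SLC14A1, a urea transporter, was 81.1-fold higher in MDA-MB231. The glutamate transporters split, SLC1A3 being 7.39-fold higher in MDA-MB231 and SLC1A1 14.7-fold higher in Hs578T. Of 47 axon guidance genes 15 were called higher in MDA-MB231 and 13 in Hs578T. NEO1, a receptor of netrins and repulsive guidance molecules, read 10.94 and 11.03 in MDA-MB231 against 8.24 and 6.97, a 10.4-fold difference that was 6.71-fold without the Hs578T FBP1 array and 16.2-fold without the Hs578T control array. The semaphorin gene SEMA5A was 11.4-fold higher in Hs578T. The guidance ligands SLIT2 and SLIT3 went opposite ways, 3.44-fold higher in MDA-MB231 and 4.70-fold higher in Hs578T.

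Proteases and their inhibitors were likewise split. MMP2, a gelatinase, read 7.06 and 6.69 in MDA-MB231 and 12.43 and 12.18 in Hs578T, whereas its activator MMP14 was 1.65-fold and the collagenase MMP1 3.11-fold higher in MDA-MB231. The MMP14 call was lost without either MDA-MB231 array. ADAMTS5, which cleaves aggrecan and versican, was 21.1-fold and ADAM12 10.97-fold higher in Hs578T. Several inhibitors lay toward MDA-MB231, with SERPINB9, which inhibits granzyme B, 35.0-fold, SERPINF1 30.2-fold and TFPI2 15.7-fold higher. Others lay toward Hs578T, among them SERPINB8 and SERPINI1. SERPINI1 was 3.61-fold higher there, and 5.84-fold and 2.24-fold without the Hs578T FBP1 and control arrays.

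Among the metabolic lists, glycolysis and glucose handling was the most one-sided, with 22 of 48 tested genes called higher in MDA-MB231 and 4 in Hs578T, and 9 and 0 at least 2-fold. With no fold minimum, fewer of the 48 were called higher in MDA-MB231 without either MDA-MB231 array. GAPDH read 14.49 to 14.53 and LDHA, which makes lactate, 14.05 to 14.06 on all arrays, and neither was called. Among called members, ALDOC and ENO2, aldolase and enolase isoforms, were 2.54-fold and 2.47-fold higher in MDA-MB231. The glucose transporter gene SLC2A1 read 13.57 and 13.55 in MDA-MB231 and 12.05 and 12.36 in Hs578T, and SLC2A3 was 8.67-fold higher. HK1, HK2 and PFKP, which commit glucose to glycolysis, were 1.87-fold, 1.66-fold and 1.66-fold higher in MDA-MB231, and PYGL, glycogen phosphorylase, 3.17-fold. The HK2 call was lost without the MDA-MB231 FBP1 array, as was that of PGD below. PC, the pyruvate carboxylase that feeds gluconeogenesis and the TCA cycle, was 3.21-fold higher. PGD and TKT of the pentose phosphate pathway were 1.34-fold and 1.40-fold higher in Hs578T. TXNIP, which restrains glucose uptake, read 12.29 and 11.70 in MDA-MB231 and 10.10 and 7.74 in Hs578T, and its call was lost without either MDA-MB231 array. Its 8.45-fold difference was 3.72-fold without the Hs578T FBP1 array and 19.2-fold without the Hs578T control array. Of 46 TCA cycle and respiratory chain genes 9 were called higher in each line, and 1 differed at least 2-fold, the mitochondrial malic enzyme ME3 (2.08-fold higher in MDA-MB231).

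Lipid genes gave larger single differences. PLIN2, the coat protein of lipid droplets, read 12.05 and 11.96 in MDA-MB231 and 6.22 and 6.39 in Hs578T, and ACSL5, which activates fatty acids, 12.13 and 12.19 against 7.66 and 7.74. LPL, lipoprotein lipase, was 4.07-fold and PPARG, a nuclear receptor for fatty acids, 2.35-fold higher in MDA-MB231. CPT1A, which admits fatty acids to mitochondria, was 2.37-fold higher in Hs578T. In synthesis, 10 of 38 genes were called higher in Hs578T and 7 in MDA-MB231. ELOVL4, which makes very long chains, was 20.2-fold higher in Hs578T and below the filter level in MDA-MB231, and SQLE, a sterol enzyme, 3.87-fold higher.

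Genes of glutathione and detoxification were called higher in Hs578T for 17 of 51 members and in MDA-MB231 for 8. NQO1, a quinone reductase, read 12.45 and 12.37 in MDA-MB231 and 13.98 and 13.48 in Hs578T, and the cystine importer gene SLC7A11 was 3.14-fold higher in Hs578T. AKR1C1 and AKR1C2, aldo-keto reductases of similar sequence and so uncertain, were 7.49-fold and 5.18-fold higher in Hs578T. The glutathione peroxidases split, GPX3 being 10.4-fold higher in MDA-MB231 and GPX7 3.71-fold higher in Hs578T. NFE2L2, which encodes the factor NRF2, and its inhibitor KEAP1 were not called. Among oxidoreductases, ALDH2, the mitochondrial aldehyde dehydrogenase, read 11.15 and 11.49 in MDA-MB231 and 7.52 and 7.5 in Hs578T. ALDH1L2, a mitochondrial folate enzyme, read 6.53 on both MDA-MB231 arrays against 11.21 and 10.86. PTGS2, which begins prostaglandin synthesis, and PTGES, the prostaglandin E synthase, were 4.06-fold and 6.99-fold higher in MDA-MB231, and PTGIS, the prostacyclin synthase, 18.8-fold higher in Hs578T.

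Amino acid and nucleotide genes were called higher in MDA-MB231 for 21 of 62 members and in Hs578T for 16. CDA, a cytidine deaminase of pyrimidine salvage, read 11.97 and 12.17 in MDA-MB231 and 7.73 and 7.72 in Hs578T, and ASS1, which makes arginine from citrulline, was 7.53-fold higher. The serine enzymes PHGDH and PSAT1 were 2.56-fold and 1.52-fold and the asparagine synthetase ASNS 2.09-fold higher in Hs578T. IDO1 and TDO2, which open the kynurenine pathway of tryptophan, were 5.26-fold and 10.1-fold higher in Hs578T, whereas KYNU, further down that pathway, was higher in MDA-MB231 by 2.24 on the log2 scale. TDO2 was below the filter level in MDA-MB231 and 17.3-fold and 5.95-fold higher without the Hs578T FBP1 and control arrays. Among glycan genes, HAS2, a hyaluronan synthase, read 12.17 and 12.32 in MDA-MB231 and 9.39 and 10.64 in Hs578T, a 4.70-fold difference that was 7.25-fold and 3.05-fold without the Hs578T FBP1 and control arrays. The branching enzyme gene MGAT4A was 16.7-fold higher in MDA-MB231 and below the filter level in Hs578T. SULF1, which trims sulfate from heparan sulfate, was 20.3-fold higher in Hs578T.

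Transcription factors were examined by family. The list of EMT factors and their partners did not lean to 1 line as a group, 9 of 29 being called higher in MDA-MB231 and 11 in Hs578T. The list also holds genes that do not drive the mesenchymal state, such as ID1 and ID2. ZEB1, a repressor of E-cadherin, read 10.97 and 11.14 in MDA-MB231 and 10.95 and 11.10 in Hs578T and was not called (limma adjusted p = 0.814). SNAI1 was 1.84-fold higher in MDA-MB231, and SNAI2, ZEB2 and TWIST1 were 1.61-fold, 1.68-fold and 2.54-fold higher in Hs578T. The SNAI2 call was lost without the MDA-MB231 control array. PRRX1, a homeobox factor of mesenchyme, gave the largest difference of this list at 8.39 and 8.09 against 11.50 and 11.68. The list of epithelial factors had 12 of 29 members called higher in MDA-MB231 and 5 in Hs578T. EHF, an epithelial ETS factor, read 10.56 and 10.83 in MDA-MB231 and 5.79 and 5.86 in Hs578T, where it is below the filter level. GRHL2 and OVOL2, which maintain epithelia, were not called, and KLF4 was not called either. TFAP2C and TFAP2A, related AP-2 factors of mammary epithelium, went opposite ways, 2.49-fold higher in MDA-MB231 and 4.19-fold higher in Hs578T. FOXA2, an endodermal forkhead factor, was 2.89-fold higher in MDA-MB231, a call lost without the MDA-MB231 control array. RBM47, an RNA-binding splicing regulator of epithelia, was 3.07-fold higher in MDA-MB231.

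**Figure D3:**
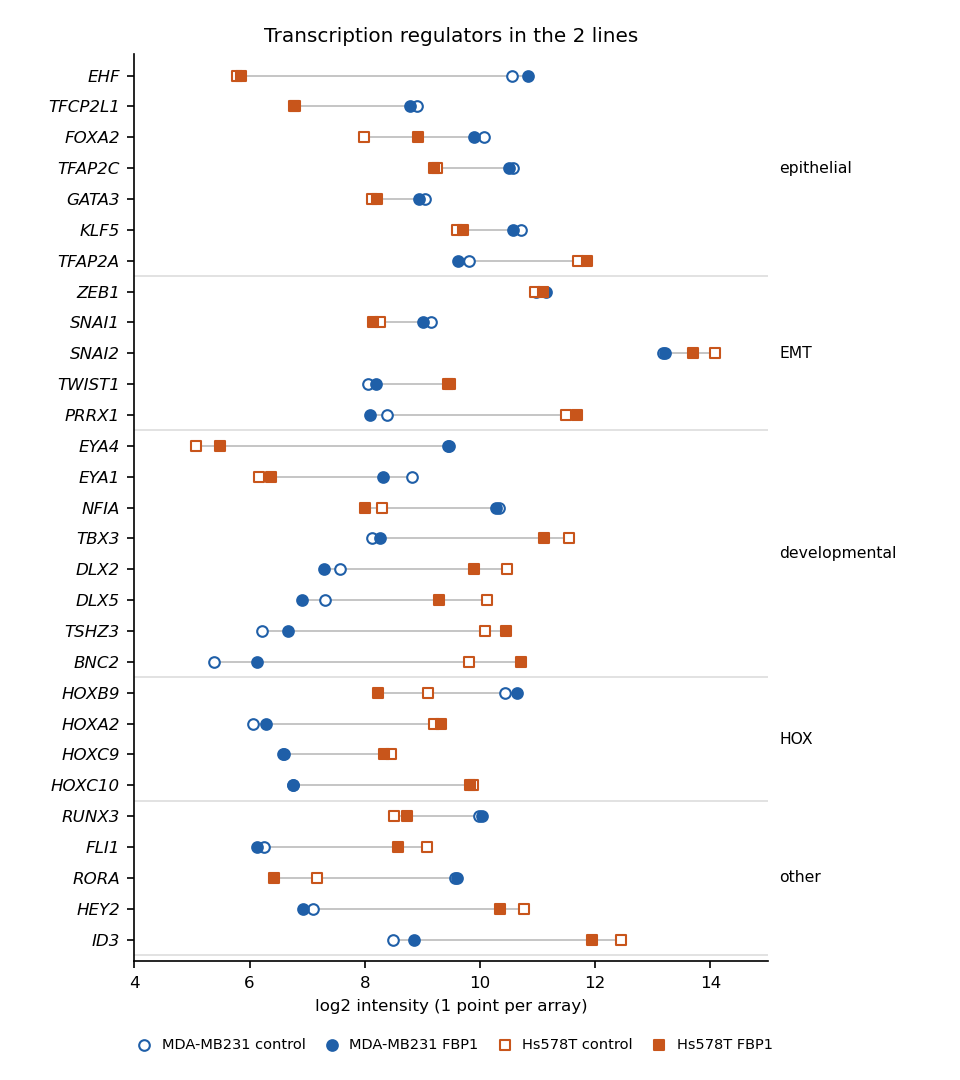
Log2 intensity (horizontal axis) of transcription regulators on each array, drawn as in the plot of lineage genes, with circles for MDA-MB231, squares for Hs578T and filled symbols for FBP1 cells. ZEB1 coincides across the arrays at 10.95 to 11.14, EHF and EYA4 lie to the right in MDA-MB231, and BNC2, TSHZ3 and the DLX genes to the right in Hs578T.

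Of 61 other developmental factors 13 were called higher in MDA-MB231 and 21 in Hs578T, 6 and 7 at least 2-fold. EYA4, a coactivator of sine oculis homeobox factors, read 9.46 and 9.44 in MDA-MB231 and 5.06 and 5.49 in Hs578T, below the filter level, and its relative EYA1 was 4.93-fold higher in MDA-MB231. NFIA, a nuclear factor I protein, was 4.45-fold higher. In Hs578T BNC2, a zinc finger factor of mesenchyme, read 9.81 and 10.71 against 5.38 and 6.14, below the filter level, and TSHZ3, a zinc finger factor of smooth muscle, was 14.2-fold higher. TBX3, a T-box factor of mammary development, read 11.54 and 11.11 in Hs578T and 8.13 and 8.26 in MDA-MB231. The distal-less genes DLX1, DLX2 and DLX5, of limb and jaw, were 5.73-fold, 6.76-fold and 6.05-fold higher in Hs578T.

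Of 27 tested HOX genes, which record body position, 4 were called higher in MDA-MB231 and 9 in Hs578T, together 48.1% against the 40.8% of all genes. Of 7 tested HOXC genes 5 were called higher in Hs578T and 1 in MDA-MB231, of 10 HOXB genes 3 and 1, and of 9 HOXD genes 0 and 2. HOXC10 read 6.76 on both MDA-MB231 arrays and 9.88 and 9.82 in Hs578T, and HOXC9 was 3.52-fold higher in Hs578T. HOXA2, the only HOXA gene tested, was 8.53-fold higher in Hs578T, and HOXB9 3.66-fold higher in MDA-MB231. Among ETS factors, FLI1 and ERG were 6.20-fold and 3.71-fold higher in Hs578T and ETV4 3.36-fold higher in MDA-MB231. RORA, an orphan nuclear receptor, read 9.57 and 9.60 in MDA-MB231 and 7.17 and 6.42 in Hs578T. VDR and THRB, receptors of vitamin D and thyroid hormone, were 2.02-fold and 3.29-fold higher in MDA-MB231. Factors that answer to stress and growth signals were called higher in MDA-MB231 for 17 of 49 members and in Hs578T for 5, only 2 of them at least 2-fold, NFKBIA (2.29-fold) and E2F8 (3.42-fold).

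Interferon-induced genes were mostly higher in MDA-MB231, with 32 of 47 called higher there and 8 in Hs578T. The median difference was 0.57, and 20 and 4 differed at least 2-fold. Without either MDA-MB231 array 22 were called higher in MDA-MB231. AIM2, a sensor of cytosolic DNA, read 9.96 and 9.62 in MDA-MB231 and 4.95 and 5.32 in Hs578T, and HERC5, a ligase of ISG15, 9.49 and 9.28 against 4.94 and 5.08, both below the filter level in Hs578T. IFITM1 was 14.8-fold, BST2 6.78-fold and MX1 3.12-fold higher in MDA-MB231. The list did not move as a whole, since SAMD9, IFI44L and USP18 were 3.08-fold, 2.72-fold and 2.34-fold higher in Hs578T and ISG15, a ubiquitin-like modifier, was not called, though it was without the Hs578T control array.

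Of 52 cell cycle genes 21 were called higher in MDA-MB231 and 6 in Hs578T, mostly by less than 2-fold. MKI67, a proliferation marker, was 1.70-fold higher in MDA-MB231. CCND2, cyclin D2, stood apart at 11.44 and 11.45 in MDA-MB231 against 8.04 and 7.28 in Hs578T, while CCND1 was 1.20-fold higher in Hs578T, a call lost without either MDA-MB231 array. Cancer-testis and placental antigens were split but far apart, 16 of 24 tested members differing at least 2-fold. SPANXB1 read 10.84 and 10.88 in MDA-MB231 and 5.98 and 6.26 in Hs578T, and SSX1 7.97 and 8.26 against 12.44 and 12.39. PRAME, an antigen of many tumours, was 13.6-fold higher in Hs578T.

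Calls were unevenly spread over the chromosomes. On chromosome 14, 54.5% of 497 tested genes were called higher in MDA-MB231 and 7.04% in Hs578T, with a median difference of 0.38. On chromosome 10 the shares were 41.1% and 7.44%, and on chromosome 6 they were 37.1% and 12.9%. Chromosome 5 was turned the other way, at 9.38% and 43.1%, as were chromosomes 22 at 6.65% and 32%, 18 at 18.2% and 38.8%, 8 at 14.3% and 34.8% and 21 at 8.90% and 30.4%. Runs of at least 6 neighbouring tested genes called in the same direction numbered 60, 33 toward MDA-MB231 and 27 toward Hs578T, and held 430 genes. The longest, on chromosome 14, ran over 18 genes from PPP2R5C to BAG5 with a median difference of 0.68, and held HSP90AA1, TRAF3 and CKB. The calls of HSP90AA1 and TRAF3 without the MDA-MB231 FBP1 array, and of TRAF3 and BAG5 without the MDA-MB231 control array, were lost, which breaks that run. On chromosome 18 a run of 12 genes from ME2 to WDR7, including SMAD4 and TCF4, was higher in Hs578T with a median of −0.88, and it too is broken where the ME2 or TCF4 call is lost, without the MDA-MB231 control array or without either FBP1 array. A run of 11 on chromosome 14 held BMP4, and a run of 10 held PYGL, so those genes differed together with their neighbours. DNA copy number was not measured, and its part in these runs was not tested.

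**Figure D4:**
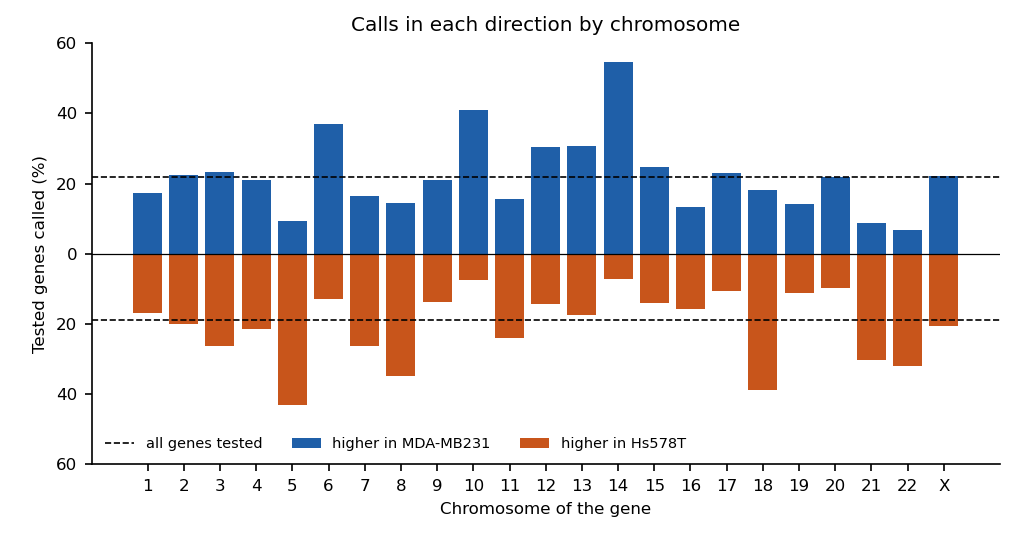
Percentage of tested genes on each chromosome called higher in MDA-MB231 (blue, upward) and in Hs578T (orange, downward), with dashed lines at the shares of all genes tested, 21.8% and 19.0%. Chromosome 14 reaches 54.5% upward and chromosome 5 reaches 43.1% downward.

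Runs of large differences were few. The SNORD116 small nucleolar RNAs of chromosome 15, near-identical copies and so uncertain, gave 6 neighbours all higher in Hs578T with a median of −6.24, and 6 neighbouring histone genes of chromosome 6, also similar in sequence, were higher in Hs578T. Another run on chromosome 6, with the histone genes H3C12, H2AC17 and H2BC17, was higher in MDA-MB231 with a median of 1.16. Not all of its genes differed 2-fold, the lowest difference being 0.68, and H3C12 read 10.21 and 9.79 against 6.85 and 7.2. A run of 5 genes on the same chromosome, from MED20 to C6orf132, was also higher in MDA-MB231, with a median of 1.15. On chromosome 9, MTAP, a methionine salvage enzyme, read 5.97 and 6.54 in MDA-MB231 and 9.22 and 9.62 in Hs578T. MIR31HG, the host transcript of the microRNA gene MIR31, read 5.38 and 5.65, below the filter level, in MDA-MB231 and 10.65 and 11.27 in Hs578T, a 43.4-fold difference. MIR31 itself, by its own probe set, was 1.90-fold higher in Hs578T. MIR221 and MIR222 were 1.77-fold and 1.53-fold higher in MDA-MB231, both calls being lost without the MDA-MB231 FBP1 array and that of MIR222 also without the MDA-MB231 control array and after quantile normalization. These arrays read the precursor transcripts and not mature microRNAs. The mature strands from RefSeq on GRCh38.p14 are given because miR-221 and miR-222 share a seed, in capitals (bases 2 to 8), that miR-31 does not.
hsa-miR-31-5p: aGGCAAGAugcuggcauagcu
hsa-miR-221-3p: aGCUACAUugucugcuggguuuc
hsa-miR-222-3p: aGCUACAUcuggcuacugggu
Their positions are chr9:21512158-21512178, chrX:45746180-45746202 and chrX:45747036-45747056, all on the minus strand.

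All 6500 called genes had the same sign between the control arrays and between the FBP1 arrays, as the test requires of a call, but sizes varied. The difference over both constructs is the mean of that between the control arrays and that between the FBP1 arrays, so both lie equally far from it. For 655 named genes that distance was at least 1 standard error, and for 621 it was less. The standard error is itself built in part from this distance. FBP1 itself read 9.83 in MDA-MB231 control and 6.35 in Hs578T control cells, a log2 difference of 3.48, and 13.07 and 13.35 in the FBP1 cells, a difference of −0.28. Its line difference over both constructs was not called (limma adjusted p = 0.155), the FBP1 cells of both lines carrying the introduced gene. The organic anion transporter gene SLCO4C1 behaved alike in size, with a log2 difference of 3.44 between control and 0.40 between FBP1 cells (limma adjusted p = 0.0531). The pseudogene NMRAL2P and ZNF667-AS1, an antisense RNA, were higher in Hs578T on both pairs of arrays, with log2 differences of −3.50 and −4.48 between control cells and −1.0 and −2.28 between FBP1 cells. The NMRAL2P call was lost without either MDA-MB231 array and without the block. With 1 array per line and construct, no test of a change in the line difference was possible for single genes. TXNIP, KRT7 and SFRP2, named above for their difference between the Hs578T arrays, are of the same kind.

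**Figure D5:**
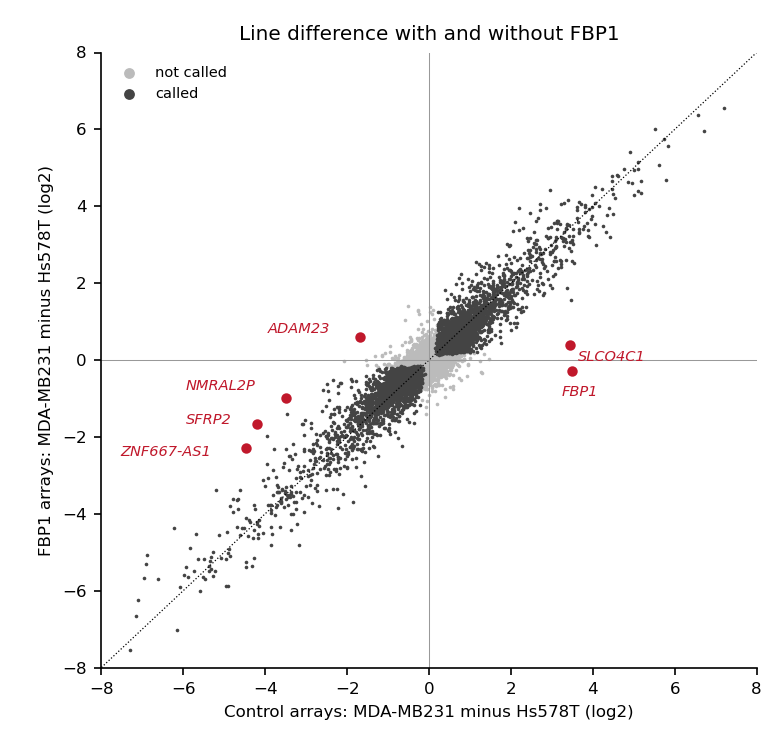
Line difference (log2, MDA-MB231 minus Hs578T) between the FBP1 arrays (vertical axis) against that between the control arrays (horizontal axis), 1 point per tested gene, dark where called, with the dotted line of equality and the 6 genes of largest change in red. Called genes lie in the quadrants of equal sign, as the test requires of a call, while FBP1 and ADAM23 lie in the quadrants of opposite sign.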

How the data were processed

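The authors deposited a table of log2 expression values per Affymetrix probe set for 4 arrays, made with Affymetrix Expression Console 1.1.2800.28061 per the submitters' processing notes; the normalization method and genome build are not given in the sources used here. Of 33297 probe sets, 19460 were annotated to 1 gene, 1754 to several and 12083 to none; the brightest probe set on average stood for each gene, giving 18417 genes. Genes with a mean of at least log2 6.16 (15946) were tested with limma 3.58.1 in R 4.3.3, with line and construct as terms, empirical Bayes moderation with an intensity trend, 1 residual degree of freedom, and Benjamini-Hochberg adjustment over all genes tested. Values within a line correlated at 0.9942 or more. The fit was tested on simulated data. The rule and the lists, which share members, were chosen with earlier results of these data known. Named genes are the 15 largest differences each way, up to 8 called members each way and the first 12 of each list, genes of neighbour runs, the 6 genes changing most with construct, and FBP1. AP1M2, CIITA, DSG2, FN1, GFAP, ISG15, ITGB1, JAG1, LDHA, MIR31, MIR31HG, MIR221, MIR222, MX1 and SPARC were added after their values were seen. Alternatives were the block, filter, normalization, trend, probe set rule, floor, fold minimum, run length, each construct alone and leaving out each array. The number of arrays limits the precision.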

Additional observations from a re-analysis of the deposited data

Results flagged for a closer look

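Only the named genes were searched for a line difference of opposite sign in control and in FBP1 cells, at least 2-fold in at least 1 of them. It was found for 3 named genes, and other tested genes were not counted. With 1 array for each line and construct the change was not tested. FBP1, whose introduced copy is carried by the FBP1 cells of both lines, differed by 3.48 on the log2 scale between the control arrays, with MDA-MB231 higher, and by −0.28 between the FBP1 arrays. ADAM23, an adhesion gene of the disintegrin family, differed by −1.69 between the control arrays and by 0.59 between the FBP1 arrays. KCNK2, a background potassium channel gene, differed by 1.29 between the control arrays and by −0.33 between the FBP1 arrays.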

How the results depend on the processing

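The number of calls changed most with the fold minimum and when an MDA-MB231 array was left out. With a 2-fold minimum added, 1718 genes were called, 867 higher in MDA-MB231 and 851 higher in Hs578T. Leaving out 1 array in turn gave 3238 to 7018 genes called between the lines. The genes called higher in MDA-MB231 numbered 1695 to 3750 and the genes called higher in Hs578T 1543 to 3268, the lowest without the MDA-MB231 control array and the highest without the Hs578T FBP1 array. Without the MDA-MB231 control array 3228 of the 3238 calls were also called with all arrays, and without the MDA-MB231 FBP1 array 3405 of 3416, all of these shared calls with the same sign. Leaving out an MDA-MB231 array leaves that line with 1 array, assumed to vary like the other. Fits with an array left out had no construct block, so the difference between the Hs578T control and FBP1 arrays then counted as error. Dropping the construct block gave 6482 calls, no filter 6623, a filter at the 50th percentile 5598, quantile normalization 6163, median centring 6638, no intensity trend 6279, the mean of probe sets 6456 and a floor 6480. No paired analysis by replicate number was possible because each line and construct has 1 array, and the construct is the block in the main fit. Runs of neighbours numbered 107 with at least 5 genes and 16 with at least 8. LPAR1, a lysophosphatidic acid receptor gene, was not called with all arrays and reversed sign, at 0.35 without the Hs578T FBP1 array and −0.39 without the Hs578T control array. Of 88 list counts, 41 moved by over 1.5 times without the MDA-MB231 FBP1 array, 40 without the MDA-MB231 control array and 71 with the 2-fold minimum. The table has no detection calls, so the low side of a fold may be background. In simulated data false calls stayed within the nominal share with variances drawn from the fitted prior but exceeded it with the moderated variances themselves. True differences were planted in a far smaller share of genes than the 40.8% called here, so the simulated share does not carry over. The 6500 calls may hold more false calls than the threshold states.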
